A study of Homo sapiens with 12 samples.

Results

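SREBP2 regions called only with XY018 were the peaks of the XY018 SREBP2 list, on chromosomes 1 to 22 and X, that had no base in common with any peak of the vehicle SREBP2 list. They numbered 20800 of the 69700 XY018 SREBP2 regions, or 29.8% of that list, and of the 684829 regions in all 6 peak lists of the series. The other 48900 XY018 regions overlapped a vehicle region and are called shared here. Of the 117441 vehicle regions, 70711 had no XY018 region. By the same rule 68013 of 129954 RORγ regions (52.3%) and 39294 of 105371 H3K27ac regions (37.3%) were called only with XY018. The lists are permissive, with peak calls down to a −log10 p of 2. For RORγ and SREBP2 the study counts fewer, high-confidence binding sites, chosen by limits on false discovery and irreproducibility. Regions here are not those sites.

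The data are chromatin immunoprecipitation sequencing of HCC70, a cultured line derived from a triple-negative tumour of the breast. Cells were given vehicle or XY018, a compound that blocks the nuclear receptor RORγ, for 24 h, and the sample labels give the dose as 5 µM while the study's methods state a lower one. Antibodies were against SREBP2, against RORγ and against H3K27ac, a histone mark of active promoters and enhancers. Each antibody had 1 vehicle and 1 XY018 library, and no use was made of the 6 input libraries. With 1 library in each group no difference between treatments has a replicate check and no p-value was computed. The 95% intervals given below are exact binomial or Poisson intervals, and they cover counting error only.

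SREBP2 is a membrane-bound transcription factor that is cut free when cell sterols fall and that then enters the nucleus. There it binds sterol regulatory elements (SREs) at promoters of genes for cholesterol synthesis and uptake, usually beside SP1 and NF-Y sites. RORγ binds DNA as a single molecule at an AGGTCA element preceded by an A and T rich stretch, the RORE. Alu elements are primate repeats that arose from 7SL RNA, the RNA of the signal recognition particle, and they are the most numerous repeats in the human genome. BC200 RNA, from the gene BCYRN1, is an expressed relative of them. Alu copies are known to carry AGGTCA elements of the kind that nuclear receptors bind.

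Alu-like sequence was found by searching hg19 with the Alu-derived first 122 bases of BCYRN1 and with the whole 7SL RNA gene RN7SL2. Bases aligned to either are called Alu-like, and a summit was counted as Alu-like when at least 50 of the 201 bases around it were. No repeat annotation was used, and the search misses diverged copies. Windows described below as away from Alu-like sequence can therefore still hold Alu sequence.

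Sequences of 3 members that were not Alu-like are printed before the values, since most of the sequence results below contrast such members with Alu-like ones. All are from hg19 and read 5′ to 3′, with the strand given beside each. The first is from the member with the highest fold whose SRE, in capitals, had no Alu-like sequence nearby (chr14:106346977-106347105, minus strand). The summit of that member lies outside the printed stretch, and its nearest vehicle SREBP2 region was 121 bp away. The others are the promoter members with the highest fold, with GC boxes (GGGCGG on either strand, the element SP1 binds) in capitals. They lie at PKD1 (chr16:2154402-2154498, minus strand) and at LIMA1 (chr12:50677304-50677422, minus strand), and had 70.1% and 76.1% GC around the summit.
SRE away from Alu-like sequence: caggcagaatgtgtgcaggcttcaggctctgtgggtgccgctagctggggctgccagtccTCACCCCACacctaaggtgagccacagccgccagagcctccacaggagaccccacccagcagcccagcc
PKD1 promoter member: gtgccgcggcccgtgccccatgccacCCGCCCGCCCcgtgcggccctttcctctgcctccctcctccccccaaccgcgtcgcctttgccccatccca
LIMA1 promoter member: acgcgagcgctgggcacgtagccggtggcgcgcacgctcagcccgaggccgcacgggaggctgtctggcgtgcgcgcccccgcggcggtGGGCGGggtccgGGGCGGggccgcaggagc

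Alu-like sequence was more frequent around summits called only with XY018 than around their flanks or shared summits. At least 50 Alu-like bases were present in the 201-base window at 11690 of 20800 members, or 56.2% (95% interval 55.5 to 56.9%), against 18.1% (17.8 to 18.5%) of the positions 1000 bp to either side. The summit base itself was Alu-like at 32% of members. The share depended on the definition, and was 36.7% with 100 bases needed, 39.9% within 50 bp of the summit, 39.2% with BCYRN1 alone and 44.3% with RN7SL2 alone. Among shared regions the order was the opposite, at 4.16% (3.98 to 4.34%) of summits and 11% of their flanks. Members were weaker than shared regions by the rule, so the shares were also compared within 10 equal-sized classes of fold enrichment. Within these classes the members' Alu-like share was 41.4 points higher (40.5 to 42.4). Alu-like bases made up 6.44% of hg19.

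**Figure D1:**
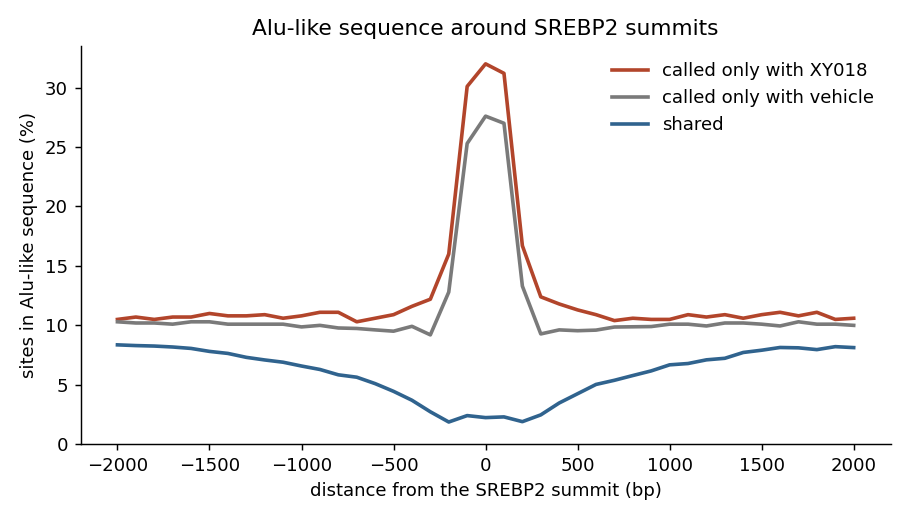
Share of sites in Alu-like sequence (vertical axis, %) against the distance from the SREBP2 summit (horizontal axis, bp), in steps of 100 bp, for regions called only with XY018, only with vehicle and shared. The members rise from 10.8% at 1000 bp before the summit to 32% at the summit itself, vehicle-only regions rise to 27.6%, and shared regions fall to 2.24%.

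The position of the repeat followed the summit closely. Base by base, Alu-like sequence covered 32% of the members' summit positions, 30.1% and 31.2% of positions 100 bp before and after, and 16% and 16.7% at 200 bp. Beyond 400 bp the share was between 10.3% and 11.3%. The alignments had a median identity of 78.9%, with a 5th percentile of 73.7% and a 95th percentile of 85.5%. Members fell evenly on both strands of the repeat, with 49.6% in plus orientation. Of the 20 most enriched 8-letter words, 10 were in BCYRN1 or RN7SL2 and 10, such as CAGCCTGG, were in neither. GAGGCTGA, which RN7SL2 contains, was found at 34.0% of members, 10.9% of their flanks and 4.32% of shared summits. CAGGCTGG, likewise in RN7SL2, was found at 37.0%, 13.8% and 7.99%.

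Base composition set members apart from shared regions as well. Median GC content over the 201 bases was 50.2% for members, 43.3% for their flanks and 70.1% for shared regions, and the median number of CpG pairs was 3 for members and 15 for shared regions. Regions called only with vehicle were nearer to members, with medians of 54.2% GC and 5 CpG pairs. Alu-like members were narrow in composition, with 88.9% of them between 45 and 60% GC. Members without Alu-like sequence were spread out. Of these 9110 regions 41.8% had under 45% GC, 33.3% had 45 to 60% and 24.9% had at least 60%, against 92.8% of shared regions with at least 60%.

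Many summits were not unique at the scale of a short word. The 24 bases at the summit occurred at least 100 times in hg19 for 19.7% of members (19.1 to 20.2%), 10.3% of their flanks and 2.17% of shared regions. For regions called only with vehicle it was 17.7%. Among Alu-like members the share was 31.4%, and among the others 4.57%. The study's methods state that only uniquely mapped tags without duplicates entered peak calling, and how the placement of reads in repeats bears on these calls was not tested.

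Motifs were searched on both strands of the 201-base window. The SRE (TCACNCCAC) was present at 710 members, or 3.41% (3.17 to 3.67%), against 1.84% (1.71 to 1.97%) of their flanks, 1.05% of shared regions and 1.76% of all XY018 regions. Regions called only with vehicle held it at 3.35%, close to the members' share. Of the 716 SRE matches at members, 87.8% had Alu-like sequence within 200 bp, against 69.6% of the matches in the flanks. Inside aligned Alu-like bases, which were 33.6% of the bases searched, lay 24 matches (3.35%). Parts of Alu copies that the 2 queries leave unaligned are not counted, so this does not give the number of matches within Alu copies. A preceding A together with a continuation of TG, any base and ACT was found at 57.5%. Of the 774 matches in the flanks, 48.3% had the same context. In windows with under 50 Alu-like bases within 300 bp of the summit, which were 30.4% of members, the SRE share was 1.15% (0.906 to 1.45%) against 0.775% (0.674 to 0.886%) of such windows in the flanks. These were 73 of 6324 members and 211 of 27228 flanking windows. Since such windows can still hold unaligned Alu sequence, an excess of the SRE outside Alu copies was not tested. Among vehicle-only regions the share away from Alu-like sequence was 1.51% (1.38 to 1.66%).

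The AGGTCA element was more frequent still. It was found at 5045 members, or 24.3% (23.7 to 24.8%), at 14.9% of flanks, at 8.35% of shared regions and at 13.1% of all XY018 regions. Of the 5293 matches 65.7% lay wholly inside Alu-like bases, although these were 33.6% of the bases searched, and 46.1% were preceded by G and followed by GGAG. Alu-like members held it in 33.6% of cases and the others in 12.3%. Away from Alu-like sequence the shares were 10.8% (10.1 to 11.6%) at members and 10.5% (10.2 to 10.9%) in flanks. The full RORE core, which needs the A and T rich bases in front, was rare, at 0.226% (0.166 to 0.300%) of members and 0.584% (0.513 to 0.662%) of flanks, and 0.148% of all XY018 regions.

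**Figure D2:**
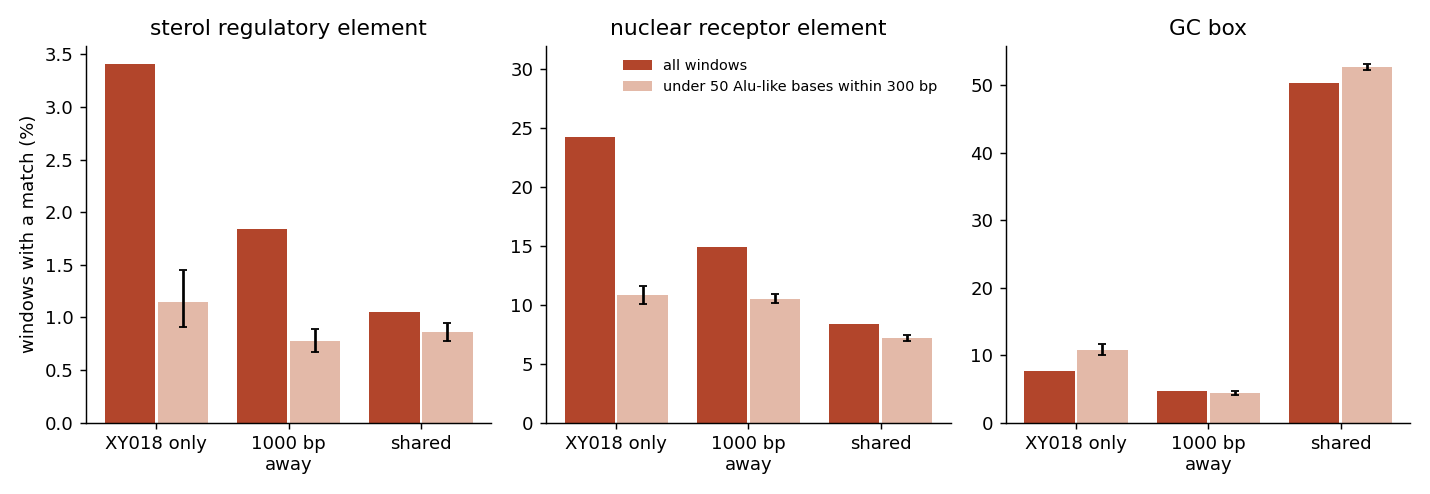
Share of windows with a match (vertical axes, %, on different scales) for the SRE, the AGGTCA element (middle panel, titled nuclear receptor element) and the GC box, at regions called only with XY018, at positions 1000 bp away from them and at shared regions. Dark bars are all windows, and light bars, with exact 95% intervals, are windows with under 50 Alu-like bases within 300 bp of the summit. The excess of AGGTCA at members over flanks, 24.3% against 14.9%, becomes 10.8% against 10.5% away from Alu-like sequence.

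The GC box and the E-box were scarcer at members than at shared regions, and the NF-Y box was more frequent. The GC box was present at 7.64% of members (7.28 to 8.01%), 4.75% of flanks, 50.4% of shared regions and 37.7% of all XY018 regions. Away from Alu-like sequence it was at 10.8% of members against 4.38% of flanks. Within classes of fold the members' share was 22.8 points lower than that of shared regions (22 to 23.7 lower). The E-box CACGTG, a second class of SREBP site, was at 2.72% of members and 5.78% of shared regions. CCAAT, the box bound by NF-Y, was at 16.2% of members, 24.7% of their flanks and 8.54% of shared regions, and away from Alu-like sequence at 21.8%, 27.8% and 8.32%. These are matches of letters, and they do not show binding.

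Alu-like summits were common in every list restricted to 1 treatment, whichever antibody was used. They made up 48.6% of the 70711 SREBP2 regions called only with vehicle (48.2 to 49.0%), 62.0% of RORγ regions called only with XY018 and 68.9% of the 106379 called only with vehicle. For H3K27ac the shares were 44% with XY018 only and 43.1% with vehicle only, with flanks of 21.6% and 20.8%. Regions present under both treatments held fewer, at 24.3% for RORγ and 30.6% for H3K27ac. They were also stronger, and among those with 4 to 7 fragments the shares were 16.9% for SREBP2, 53.1% for RORγ and 42.1% (38.1 to 46.2%) for H3K27ac. The members' share lay above that of SREBP2 regions called only with vehicle and below both RORγ shares of a single treatment.

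**Figure D3:**
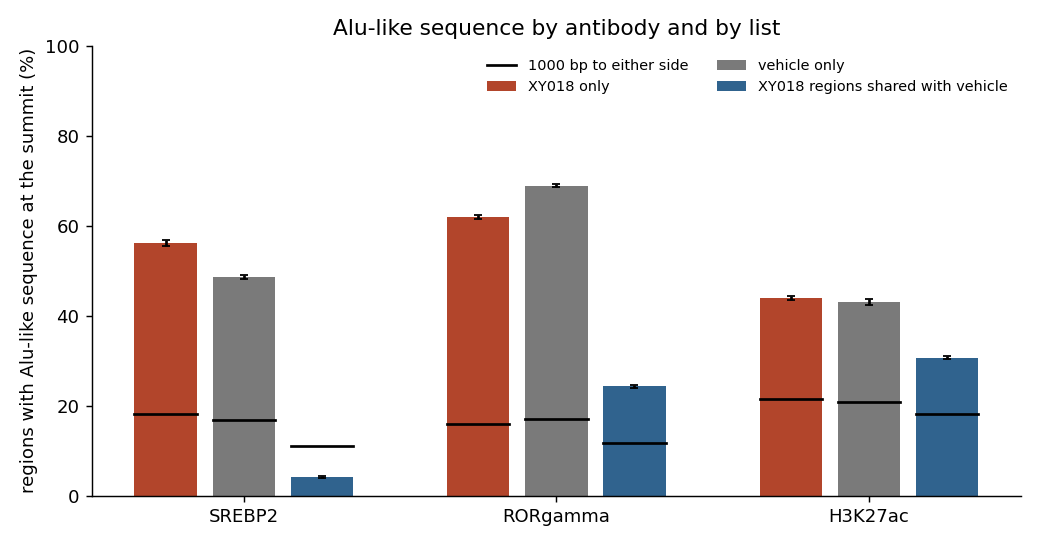
Share of regions with Alu-like sequence at the summit (vertical axis, %) for each antibody, split into regions called only with XY018, only with vehicle, and XY018 regions shared with vehicle. Error bars are exact 95% intervals and black lines are the shares 1000 bp to either side; the 6 lists of a single treatment lie between 43.1% and 68.9%, all above their flanks.

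Members were chosen by the SREBP2 peak calls themselves, so their SREBP2 values are given as description only. With XY018, members had a median of 7 fragments at the summit (range 4 to 57) over a median local background of 1.29, and shared regions had a median of 16 fragments. Median fold enrichment was 3.16 for members (highest 8.58) and 6.32 for shared regions. Of the members, 65.7% had at most 7 fragments, against 10.7% of shared regions, and 43.3% had the smallest width in the list, 205 bp, against 5.81%. At a q value of at most 0.01 there remained 7610 members (36.6%), and at 1e-05 there remained 176 (0.846%). Members held 15.6% of the bases covered by XY018 regions and 13.3% of the fragments summed over summits.

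A missing vehicle call is not a measured absence. The list holds no value for a site that was not called, and the fewest fragments called at the genome-wide background were 4 in both SREBP2 libraries, whose depths were 5.56 (vehicle) and 5.92 (XY018) tags per kb. Scaled to the XY018 background, the vehicle minimum corresponds to 4.72 fragments. This value holds only where the local background is the genome-wide one, as at 9342 members, and of these 128 had a lower 95% limit of the XY018 count above it. The vehicle minimum was taken as fixed, without counting error. The XY018 counts also entered the choice of members, so the 128 are description and not a test of gain. A higher local background needs more fragments for a call, and that level was not computed for the other members.

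**Figure D4:**
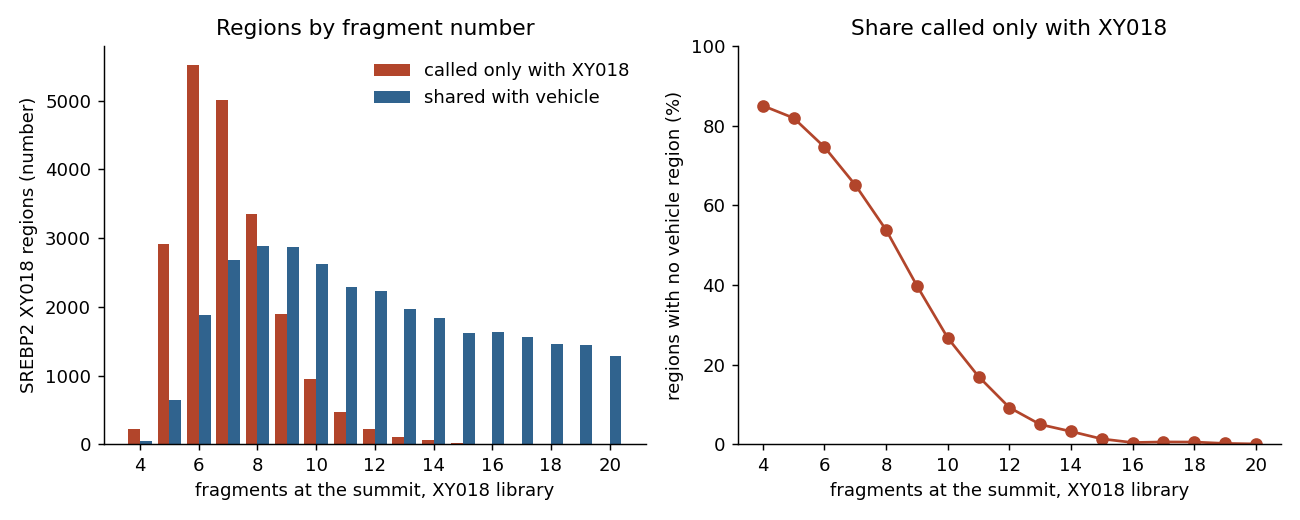
Left, number of SREBP2 XY018 regions (vertical axis) by fragments at the summit (horizontal axis, 4 to 20), for regions called only with XY018 and for shared regions. Right, share of regions with no vehicle region (%), which falls from 85.0% at 4 fragments to 53.8% at 8 and 0.0775% at 20.

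Few members coincided with RORγ or with H3K27ac. A RORγ region overlapped 4089 members with vehicle (19.7%, 19.1 to 20.2%) and 2962 with XY018 (14.2%, 13.8 to 14.7%), against 84.9% and 85.2% of shared regions. An H3K27ac region overlapped 6.01% of members with vehicle and 6.94% (6.60 to 7.30%) with XY018, against 52.1% and 49.3% of shared regions. SREBP2 regions called only with vehicle were low too. In the vehicle and XY018 libraries, in that order, RORγ overlapped 25.1% and 21.1% of them, and H3K27ac 10.9% and 11.7%. In all, 64.8% of members (64.2 to 65.5%) overlapped none of the 4 lists of the other antibodies, against 5.51% of shared regions. Only 22 members overlapped all 4.

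The RORγ regions found at members were weaker than those at shared regions and close to the whole RORγ lists. They had a median of 7 fragments with vehicle and 6 with XY018, against 19 and 18 at shared regions and 7 in each whole RORγ list. H3K27ac regions at members had a median of 14 fragments with vehicle and 13 with XY018, against 34 and 37 at shared regions. The whole H3K27ac lists had medians of 15 and 14. Alu-like members overlapped a vehicle RORγ region more often than the others, in 23.5% (22.7 to 24.3%) against 14.7% (14 to 15.5%), and an XY018 RORγ region in 15.7% against 12.4%. For XY018 H3K27ac the shares were 7.36% and 6.41%.

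These differences kept their direction at like strength and were smaller. Without classes they were -71.0 points for RORγ and -42.3 points for H3K27ac, members minus shared. Within classes of fold, members overlapped an XY018 RORγ region 43.3 points less often than shared regions (42.2 to 44.3 less) and an XY018 H3K27ac region 15.8 points less often (15 to 16.6 less). At exactly 7 fragments, 13.7% of 5013 members and 53.7% of 2685 shared regions overlapped XY018 RORγ. At 10 fragments the shares were 21.7% of 956 members and 71.8% of 2619 shared regions. Alu-like share moved apart with strength, from 43.4% at 4 fragments to 65.9% at 10 among members, and from 20% to 6.76% among shared regions. The members' promoter share stayed between 6.02% and 7.52% from 4 to 10 fragments, while that of shared regions went from 22.5% to 30.9%.

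**Figure D5:**
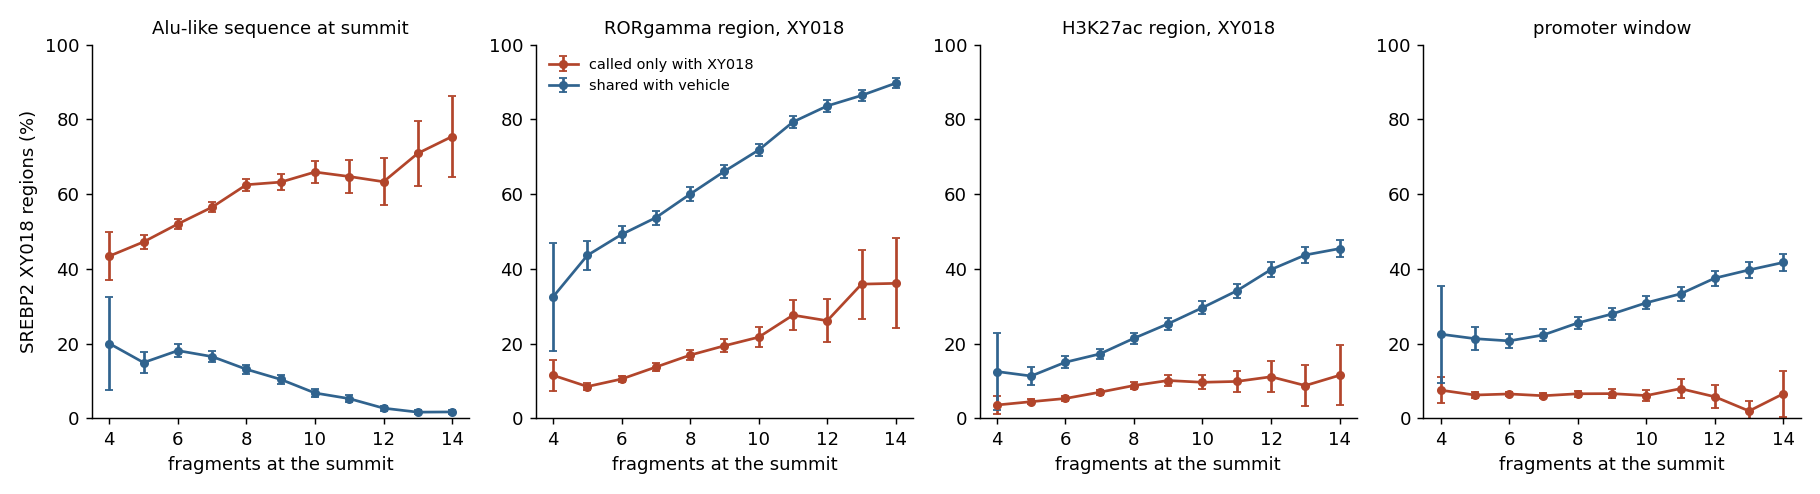
Share of SREBP2 XY018 regions (vertical axes, %) with Alu-like sequence at the summit, an XY018 RORγ region, an XY018 H3K27ac region or a promoter window, against fragments at the summit (4 to 14), for regions called only with XY018 and for shared regions. Bars are normal 95% intervals for counting error; at 10 fragments 65.9% of members and 6.76% of shared regions were Alu-like.

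Gains called in more than 1 antibody were rare. A RORγ region called with XY018 and not with vehicle lay at 1746 members, or 8.39% (8.02 to 8.78%), and the background over all XY018 SREBP2 regions was 6.92%. For H3K27ac the members' count was 641, or 3.08% (2.85 to 3.33%), and the background was 3.76%. The reverse, RORγ called with vehicle and not with XY018, was found at 2873 members, or 13.8% (13.3 to 14.3%), and the background was 8.32%. Both RORγ and H3K27ac appeared only with XY018 at 46 members, of which 35 were Alu-like and 4 lay in a promoter window. These were 0.221% of members, and the same was true of 89 shared regions, or 0.182%. Of the 10 with the highest fold among the 46, the first lay in ANKRD11, a chromatin regulator gene, at chr16:89414321-89414601, with 10 SREBP2 fragments, 6 RORγ fragments and 11 H3K27ac fragments with XY018 and no call in any vehicle list. Another was at chr16:67637255-67637490 in CTCF, the gene of the insulator-binding protein, with 8, 4 and 15 fragments in the same order. In these 10, the SREBP2 fragments ranged from 8 to 12 and the RORγ fragments from 4 to 12.

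Distance to the nearest vehicle SREBP2 region separated members by kind. The median gap was 5986 bp, 9 members touched a vehicle region end to end, and 2413 (11.6%) lay within 500 bp of one. These close members were more often in promoters (16.7%, against 3.45% of the 8113 members over 10000 bp away), more often GC rich (39.3% with at least 60% GC, against 3.22%) and more often overlapped XY018 RORγ (27.7%, against 10.6%). Alu-like share was lower among them, at 34.2% (32.3 to 36.1%), than at over 500 and up to 10000 bp, at 60.3%, or beyond, at 57.6% (56.5 to 58.7%). The members just inside the rule were at chr4:81118102-81118307 in PRDM8, chr12:94117758-94117962 in CRADD and chr14:94213782-94213993 in PRIMA1, each ending where a vehicle region began, or the reverse, with 5, 6 and 8 fragments. The regions just outside it shared a single base with a vehicle region, at chr1:2818873-2819094, chr1:227976816-227977270 and chr2:131803166-131803370, with 8, 8 and 5 fragments.

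Promoter windows, from 1000 bp upstream to 100 bp downstream of a transcript start, held 1325 members, or 6.37% (6.04 to 6.71%), against 43.2% of shared regions and 11.9% of regions called only with vehicle. Within classes of fold the members' share was 17.6 points lower (16.8 to 18.4 lower). Members' summits lay inside protein-coding genes in 49.2% of cases and in exons in 5.25%, against 69.3% and 36.2% for shared regions. Promoter members were less often Alu-like than the rest, at 41.7% (39.0 to 44.4%) against 57.2% (56.5 to 57.9%). They overlapped XY018 H3K27ac in 17.6% of cases, against 6.22% outside promoters. Any annotated transcript start was used, those inside genes included, and 64.8% of promoter members had their summit inside a protein-coding gene.

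Of 20090 protein-coding genes, 804 had a promoter member, or 4.0%. Of these, 667 also had a vehicle SREBP2 region in a promoter window, not always at the same transcript start. Among all protein-coding genes, 70.6% had a vehicle SREBP2 region in a promoter window. Of the promoter members themselves, 30.3% lay within 500 bp of a vehicle region. A promoter member and no vehicle SREBP2 region in any promoter window of the gene was found for 137 genes, or 0.682% of all. H3K27ac marked the promoters of 46.0% of these 137 genes with vehicle (37.4 to 54.7%) and 46.0% with XY018, against 66.8% and 68.0% of all protein-coding genes. RORγ regions lay in 24.1% of these promoters in the vehicle library and 16.8% in the XY018 library, against 62.7% and 61.5% of all. The 667 genes with both a promoter member and a vehicle promoter region had H3K27ac at 85.3% and 87.1%, respectively. A member anywhere in the gene was found for 5789 genes, or 28.8%.

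Genes of sterol metabolism were examined together with clock, AP-1, stress, basal, luminal and coregulator genes. Of 105 genes in these 10 lists, 4 had a promoter member (3.81%, against 4.0% of all protein-coding genes), and none of the 105 was among the 137 genes without a vehicle promoter region. The list of 21 cholesterol synthesis genes held 2 of them (9.52%), NSDHL and MSMO1, both enzymes that remove methyl groups from sterol precursors. The NSDHL member, at chrX:151999580-151999799, had 10 fragments and a fold of 3.75, and overlapped RORγ with XY018 (15 fragments) and H3K27ac under both treatments (26 fragments with vehicle, 22 with XY018). It lay 80 bp from a vehicle SREBP2 region with 19 fragments. The MSMO1 member, at chr4:166248752-166248956, had 8 fragments over a local background that gave a fold of 2.68 and a q value of 0.0999. It overlapped H3K27ac (27 and 24 fragments) and no RORγ region, and lay 98 bp from a vehicle SREBP2 region with 11 fragments.

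The other promoter members of the lists were at PER1, a clock repressor, and GATA3, a luminal transcription factor. The PER1 member, at chr17:8049375-8049579, had 5 fragments and a q value of 0.183. Its summit lay inside the gene, and a vehicle SREBP2 region with 18 fragments lay 929 bp away. The GATA3 member, at chr10:8094346-8094615, had 8 fragments and a q value of 0.0161. A vehicle SREBP2 region with 54 fragments lay 147 bp from it. Neither member overlapped RORγ or H3K27ac in any library. No promoter member was found in the lists for sterol uptake and sensing, efflux, fatty acid synthesis, AP-1, stress, basal or coregulator genes. Members inside genes were found for 34 of the 105 (32.4%), close to the 28.8% of all protein-coding genes. They included ACAT2, MVD, LSS, MSMO1, NSDHL and DHCR7 in cholesterol synthesis, NPC1 and LPIN1 in uptake and sensing, and 6 of 10 fatty acid genes (FASN, ACACA, ACLY, ACSS2, FADS2 and ME1). None of the 6 efflux genes had one.

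The members with the highest fold were of mixed kind. Both leading members had 18 fragments (95% interval 10.7 to 28.4) and a fold of 8.58. The first, at chr15:89148384-89148675, lay 16044 bp from the start of AEN, a nuclease gene, and RORγ was called there with 12 fragments with vehicle and 4 with XY018. A vehicle SREBP2 region with 25 fragments lay 111 bp from it. The second, at chr19:14320330-14320718, lay 3528 bp from the start of ADGRL1, an adhesion receptor gene, with 13 and 14 RORγ fragments. Its nearest vehicle SREBP2 region was 2523 bp away, with 16 fragments. Of the 15 highest, 2 were Alu-like. The nearest vehicle regions of the 15 had between 5 and 77 fragments and lay 82 to 41997 bp away. H3K27ac was called at 3 of the 15 in at least 1 library, namely those at PKD1, LIMA1 and ARID1B.

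In promoter windows, PKD1 and LIMA1 led. PKD1, the gene of polycystin-1, held a member at chr16:2154386-2154649 with 19 fragments (11.4 to 29.7) and a fold of 7.77, a vehicle SREBP2 region 504 bp away with 15 fragments, RORγ in both libraries (7 and 9 fragments) and H3K27ac with XY018 only (12 fragments). The PKD1 summit lay inside the gene, 668 bp from the nearest annotated start. LIMA1, which encodes an actin-binding protein that takes part in intestinal cholesterol uptake, held a member at chr12:50677167-50677544 with 14 fragments (7.65 to 23.5) and a fold of 6.77. It lay 27145 bp from the nearest vehicle region and overlapped H3K27ac with 11 fragments in each library and no RORγ region. The next, at fold 5.42 with 11 fragments each, were at ASTL, PARP8, ERI1, ENSG00000285526 and WNK3. ASTL and GLTPD2 were, with LIMA1, the genes of these 10 members whose promoters had no vehicle SREBP2 region. The GLTPD2 member nevertheless lay 58 bp from a vehicle region with 14 fragments, outside the window, against 10 fragments of its own. At CCNB1, the cyclin B1 gene, the member was Alu-like, with 10 fragments, and overlapped no region of RORγ or H3K27ac. The summit of the CCNB1 member lay inside the gene, and the nearest vehicle region was 9704 bp away.

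The members with the most fragments differed from those with the highest fold. The 5 highest counts, 57, 47, 46, 41 and 23 fragments, lay beside centromeres on chromosomes 16 and 10, with folds between 1.74 and 3.70. The first, at chr16:46386492-46386701, had a vehicle SREBP2 region nearby with 73 fragments and overlapped RORγ regions with 85 fragments with vehicle and 79 with XY018. The 11 members with at least 20 fragments had local backgrounds of 3.15 to 32.3, against the median of 1.29.

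Members were spread over the genome in 2734 of 3053 bins of 1 Mb. Their density was highest on chromosome 19, at 24.0 per Mb, where 16% of bases were Alu-like, and lowest on chromosome 4, at 3.35 per Mb with 4.54%. Shared regions were densest on chromosome 19 too, at 74.3 per Mb, and least dense on chromosome X, at 7.72 per Mb. As a share of XY018 regions, members ranged from 18.5% on chromosome 17 (17.2 to 19.8%) to 39.1% on chromosomes 3 and 13. Alu-like bases made up 11.7% of chromosome 17, and 5.39% and 4.73% of chromosomes 3 and 13.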

How the data were processed

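Peak lists of the 6 immunoprecipitated libraries of HCC70 cells were used, with groups from the labels of antibody and treatment (1 library each). According to the study's methods, BWA aligned reads to hg19 and uniquely mapped, deduplicated tags went to MACS. The submitters' processing notes name Bowtie2, MACS2 2.1.0 and bedtools. Each deposited row gives a display score (not used here), a fold enrichment (a ratio over the local background), the −log10 p-value and −log10 q-value, and a summit, all made by the authors. For H3K27ac, peak numbers show that the lists are subsets of longer ones.

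Overlap meant at least 1 shared base. The deposited fold and −log10 p were inverted under the Poisson model to whole fragments and local background, with a tolerance of 5% of the step between whole numbers, and 98.7% to 100% of regions gave one. Depth is the genome-wide background over the smallest width, between 3.65 and 6.16 tags per kb over the 6 libraries, and limits precision as the intervals show. Alu-like bases were blastn 2.17.0 alignments (e-value 1e-05, search space 40000) to the first 122 of 200 bases of BCYRN1 and the 297 of RN7SL2. Genes were from GENCODE 44 lifted to GRCh37, the build of hg19. Shares have exact (Clopper-Pearson) and fragments exact Poisson 95% intervals, and differences within classes normal ones. Scripts were tested on simulated data.

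Members and lists were chosen with earlier results of these data known, and the Alu-like map and its settings after the data were examined. Named members were the 15 of highest fold, the 10 highest in coding promoters, the 10 highest over 10000 bp from a vehicle region, the 10 highest with RORγ and H3K27ac also only with XY018, all in promoters of listed genes, the 5 with most fragments, the 3 nearest to vehicle regions and the 3 least-overlapping shared regions. The alternatives tried were thresholds, list lengths, distances, windows, classes and queries. Some sequences and 1 gene are not reported here.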

Additional observations from a re-analysis of the deposited data

How the results depend on the processing

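No paired analysis was possible because each group holds 1 library and no test was run; for the same reason no replicate could be left out. Of 67 alternatives over 16 results, none reversed a result, 8 left the value inside its counting interval (or within 1.5 times, for counts) and 59 moved it; all 17 alternatives of the differences within classes kept their sign. Alternatives on Alu-like sequence were chosen after seeing the data. The number of members was 8439 with q of at most 0.01 in both lists, 7610 with it in the XY018 list alone and 176 at 1e-05. The number of genes without a vehicle promoter region was 326 with 5000 bp windows and 46 at q of at most 0.01.

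Shares follow as promoter, XY018 RORγ, XY018 H3K27ac and Alu-like where all moved. At q of at most 0.01 RORγ was 18.4%, H3K27ac 7.84% and Alu-like 62.7%. At 1e-05 promoter was 10.2%, RORγ 35.2% and H3K27ac 10.8%. With no vehicle region within 1000 bp they were 4.55%, 12.0%, 5.85% and 59.6%, and with lists of equal length 7.09%, 16.7%, 7.47% and 54.5%. Promoter share was 33.8% with 5000 bp windows, RORγ share 7.93% with summits within 100 bp, and H3K27ac share 6.06% with the summit inside its region. Alu-like share was 39.2% with BCYRN1 alone, 44.3% with RN7SL2 alone, 39.9% within 50 bp and 36.7% with 100 bases needed.

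Differences in points, members minus shared, were -36.8, -71.0, -42.3 and 52.0 without classes. At q of at most 0.01 they were -21.8, -48.2, -19.9 and 52.8, and with no vehicle region within 1000 bp -19.6, -45.7, -17.1 and 45. With classes of −log10 p the RORγ and H3K27ac differences were -40.8 and -13.6. With BCYRN1 alone the Alu-like difference was 29.0. Depth limits what a missing vehicle call means, since most members had under 10 fragments.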
